A study of Rattus norvegicus with 3 samples.

Results

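The phase II conjugation enzymes were taken as all rat genes whose symbol starts with Gst, Mgst, Ugt1, Ugt2, Ugt3 or Sult, found through the RefSeq accession of each array probe. The RefSeq gene table of the rat assembly GRCr8 holds 82 such genes, 68 of them protein coding. Of the 30367 probes on the array, 55 belonged to 50 of these genes, and no probe was matched to a Ugt3 gene. A gene was tested where a probe was well above background in the same channel on all 3 arrays, which left 36 of the 50 genes among 14179 genes tested. Of the 14179, 8908 had a gene symbol, and those without one are also called genes here.

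Kidney RNA of male Sprague-Dawley rats that drank water with 200 ppm GABA (G200) was compared with kidney RNA of male Sprague-Dawley control rats given no GABA, all 5 weeks old by their labels. The study's methods give this as the age at purchase, with acclimation and some weeks of treatment after it, so the kidneys came from older animals. Each of the 3 arrays carried control RNA in Cy3 (green) and the RNA of 1 G200 sample in Cy5 (red), and all values are log2 ratios of G200 over control, so that a value above 0 means a higher level in G200. No dye was exchanged between the groups, so the effect of the dye and that of GABA cannot be told apart. For the median probe the green channels varied no more than repeat spots of the same array, so the control counted as 1 sample and the test leaves out the spread between control rats.

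Phase II enzymes attach a polar group to drugs, toxins, bilirubin, bile acids and steroids, so that these can leave the body in bile or urine. Glutathione S-transferases (Gst and the membrane-bound Mgst) use glutathione, UDP-glucuronosyltransferases (Ugt) use glucuronic acid from UDP-glucuronate, and sulfotransferases (Sult) use sulfate from the donor PAPS. The liver is the main site of these reactions, while the proximal tubule of the kidney has its own set of these enzymes and completes the conversion of glutathione conjugates to mercapturates.

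Of the 36 genes tested, 18 were lower and 2 were higher in G200 at an adjusted p under 0.05 in limma, and 16 did not pass. Over all 14179 genes tested, 25.9% were lower and 11.6% were higher by the same rule. A fall of 2-fold or more was found for 10 of the 36 genes, against 4.03% of all genes tested. The median log2 ratio was -0.25 over the 36 genes and -0.05 over all genes. Of the 36 genes, 29 passed the filter through both channels, 5 in the control channel alone and 2 in the G200 channel alone. A gene that passed in 1 channel alone had to be dimmer in the other, and 4 of the 18 lower genes were of this kind.

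These counts depended on the scaling between the dyes. With each array centred on its median instead of loess, the median of all genes moved to 0.27, and 11 conjugation genes were lower and 11 were higher. With no normalization between the dyes, the median of all genes was 0.62, and the counts were 7 and 19. The share of higher genes among all genes past the threshold was 30.8% with loess, 80.0% when centred on the median and 96.3% with no normalization. The methods' t-test compares groups of unequal variance. Run on the 2 channels, with the repeated control RNA as 3 samples, it left Sult2a6 lower after adjustment and 11 conjugation genes lower at an unadjusted p under 0.05. Carried over to the 3 log ratios, where no second group is left, it called no conjugation gene after adjustment and 15 without it, 13 of them lower. An exact test of a single gene over 3 arrays cannot go below a two-sided p of 0.25, so the calls rest on the spread that limma shares across genes.

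**Figure D1:**
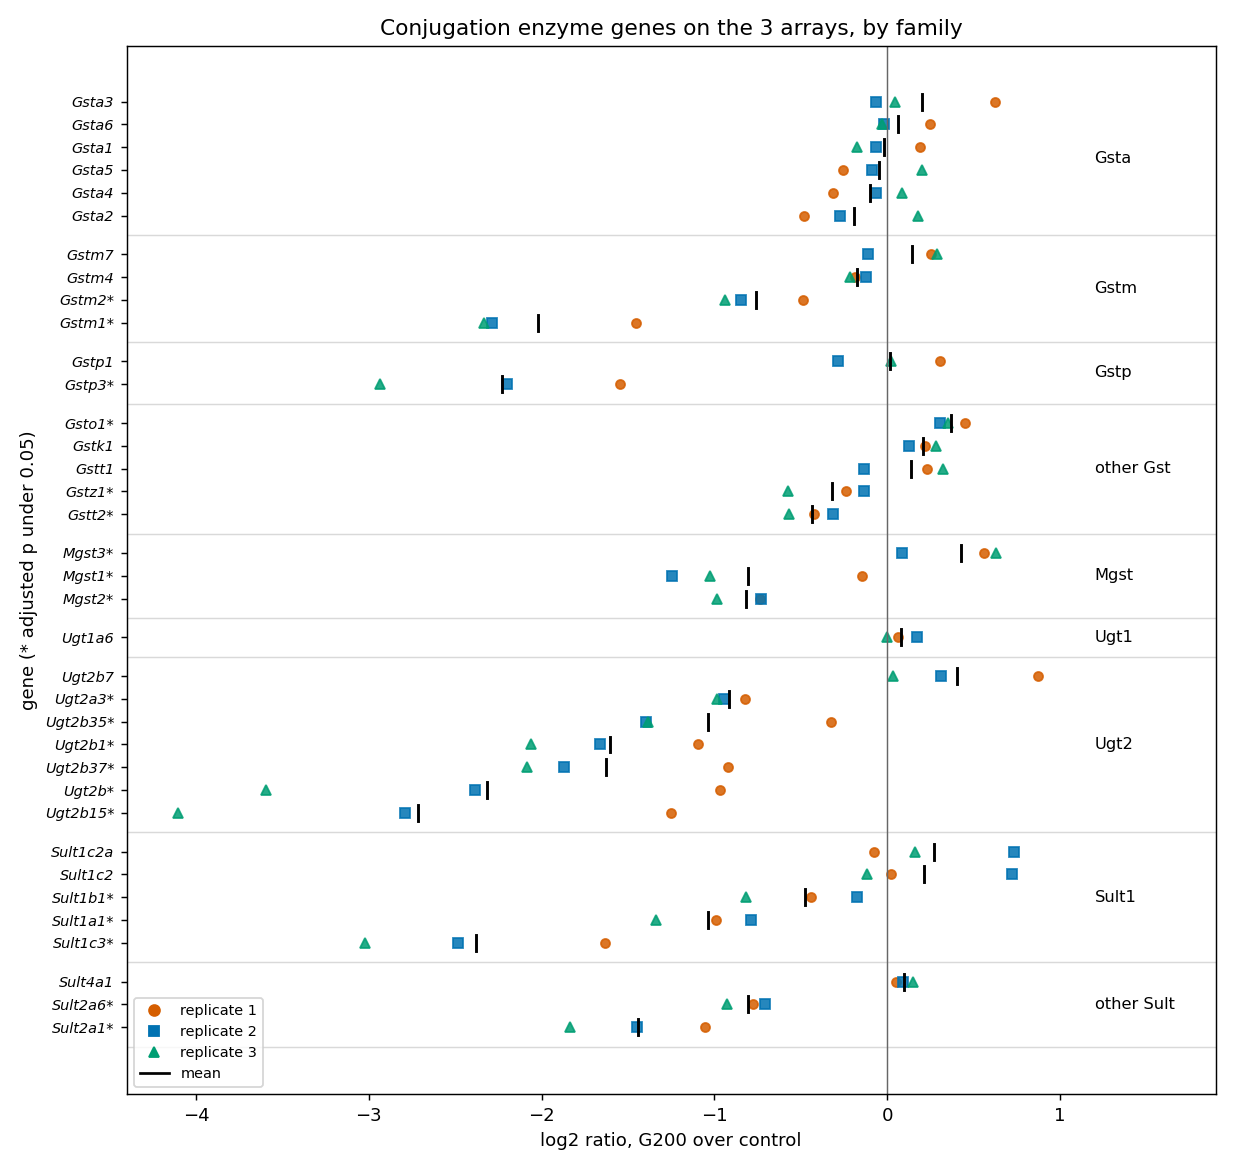
Log2 ratio of G200 over control for the 36 conjugation enzyme genes tested, grouped by family, with 1 point per array, the mean as a bar and an asterisk at an adjusted p under 0.05. The Ugt2 genes reach -4.10 on replicate 3, while the 6 Gsta genes lie on both sides of 0 (the 4 with means under 0 turn above it with median centring or with no normalization between the dyes).

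The UDP-glucuronosyltransferases of subfamily 2, which act on steroids, bile acids and many drugs, were mostly lower. Of the 9 Ugt2 genes with a probe, 7 were tested and 6 were lower. Of these 6, Ugt2b1 and Ugt2a3 had passed the filter through the control alone, so they had to be dimmer in G200, and the gene that was not lower, Ugt2b7, had passed through G200 alone. The family median was -1.61, the value of Ugt2b1 itself, with -0.92, -1.66 and -2.06 on replicates 1, 2 and 3. Over the 4 genes well above background in both channels it was -1.97. The family median kept its sign under each scaling tried, and was -1.11 with median centring, -0.76 without any normalization of the dyes and -2.88 with the Feature Extraction ratio.

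The tested Ugt2b genes lie in 1 cluster on chromosome 14, in the order Ugt2b, Ugt2b15, Ugt2b37, Ugt2b35, Ugt2b7 and Ugt2b1, and their promoters are shown because 5 of the 6 genes fell together. Promoters were matched by symbol in the RefSeq promoter table of GRCr8 for 32 of the 36 tested genes, the others being Mgst2, Gstt1, Gstt2 and Sult4a1. The 120 bases before each start are given 5′ to 3′ on the strand of the gene. Capitals mark TGAGCAATGCAAGTTATATTTTAAC, the longest run shared by the 250 bases before the start of Ugt2b15, Ugt2b, Ugt2b37, Ugt2b35 and Ugt2b7. Ugt2b1 was left out of that search once its promoter had been seen.
Ugt2b15 (chr14:21122746-21122865, + strand): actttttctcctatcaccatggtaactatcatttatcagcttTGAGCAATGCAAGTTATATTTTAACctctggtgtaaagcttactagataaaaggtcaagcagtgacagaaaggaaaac
Ugt2b (chr14:20985329-20985448, + strand): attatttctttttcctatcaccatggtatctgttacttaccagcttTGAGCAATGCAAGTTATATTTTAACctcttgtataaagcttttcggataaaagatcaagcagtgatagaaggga
Ugt2b37 (chr14:21172016-21172135, + strand): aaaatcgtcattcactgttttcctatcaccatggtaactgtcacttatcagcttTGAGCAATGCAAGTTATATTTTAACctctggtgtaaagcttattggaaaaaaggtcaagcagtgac
Ugt2b35 (chr14:21208321-21208440, + strand): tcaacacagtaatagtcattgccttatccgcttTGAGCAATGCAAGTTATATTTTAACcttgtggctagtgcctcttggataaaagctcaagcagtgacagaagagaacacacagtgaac
Ugt2b7 (chr14:21251415-21251534, + strand): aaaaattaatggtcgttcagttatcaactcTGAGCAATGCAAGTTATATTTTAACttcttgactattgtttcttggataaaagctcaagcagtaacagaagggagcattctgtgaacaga
Ugt2b1 (chr14:21378762-21378881, + strand): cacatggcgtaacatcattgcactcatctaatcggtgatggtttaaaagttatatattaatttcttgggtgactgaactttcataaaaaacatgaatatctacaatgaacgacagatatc

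The shared run of 25 bases starts at position -78 in Ugt2b15, -74 in Ugt2b, -66 in Ugt2b37, -87 in Ugt2b35 and -90 in Ugt2b7, counted from the start. On either strand it is held by 7 of the 33469 promoters of the table (0.0209%) in the 250 bases before the start. These are the 5 promoters it was taken from and those of Ugt2b7l1 and LOC134478834. Over the bases shown, without gaps and at the best shift, Ugt2b15 matched Ugt2b37 at 98 of 108 positions (90.7%) and Ugt2b at 98 of 116 (84.5%). Ugt2b35 matched Ugt2b7 at 93 of 117 (79.5%), and Ugt2b15 matched Ugt2b1 at 45 of 118 (38.1%). The search fixed in advance that the run is present in 4 of the 5 lower Ugt2b genes and in Ugt2b7, which was not lower. It is absent from the window of Ugt2b1, which was left out of the search. The presence of the run therefore says nothing about the calls. A match of letters is a description of the sequence and no evidence of a bound factor.

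Ugt2b15, which glucuronidates androgens, had log2 ratios of -1.25, -2.79 and -4.10 on replicates 1, 2 and 3. All arrays were negative, yet the fall on replicate 3 was much deeper than that on replicate 1, and the mean was -2.72 ± 1.43 (SD, n = 3, adjusted p = 0.00825). For its neighbour Ugt2b the ratios were -0.97, -2.38 and -3.60, a mean of -2.32 ± 1.31 (SD, n = 3, adjusted p = 0.0104). The same array lay nearest 0 in both genes, and without replicate 2 the adjusted p of Ugt2b was 0.0526. Ugt2b37 stood at -0.92, -1.87 and -2.09, a mean of -1.63 ± 0.62 (SD, n = 3, adjusted p = 0.00348). Its arrays were closer together than those of Ugt2b15, and with no normalization its call was lost (-0.76, adjusted p = 0.0808).

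Ugt2b1 had ratios of -1.09, -1.66 and -2.06 (mean -1.61 ± 0.49, SD, n = 3, adjusted p = 0.00184). In G200 its probe was well above background on 1 array, so the ratio leans on dim red signals on the others. Over the settings tried the value of Ugt2b1 ran from -4.17 to -0.98. Ugt2b35 and Ugt2a3 are named after their values were seen. Ugt2b35 had ratios of -0.32, -1.40 and -1.39 (mean -1.04 ± 0.62, SD, n = 3, adjusted p = 0.0135). Its call was among the less stable, being lost without replicate 2 (adjusted p = 0.0674), without replicate 3 (0.0891), with median centring (0.242), with no normalization (-0.17, 0.691) and in separate channels without a replicate block (0.0654). Ugt2a3, which lies in the same cluster, had ratios of -0.82, -0.95 and -0.98, a mean of -0.92 ± 0.08 (SD, n = 3, adjusted p = 0.000953). Its 3 arrays differed little, but its G200 signal was well above background on 1 array alone, so the small SD was found with dim red signals. The size of its fall depended on the processing, since the log2 ratio of Ugt2a3 was -3.07 with the Feature Extraction log ratio. With no normalization it was at -0.48 and its call was lost (adjusted p = 0.0753).

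Ugt2b7 did not pass. Its ratios were 0.87, 0.31 and 0.03, a mean of 0.41 ± 0.43 (SD, n = 3, adjusted p = 0.0845). On no array was its control signal well above background, so it passed the filter through G200 alone and its ratios rest on a control level that was not measured. Replicate 1 stood above the others, and with no normalization the mean was 0.79 (adjusted p = 0.0405). It also passed as higher with the Feature Extraction ratio (1.63, 0.0219) and the robust variance model (0.0271). Ugt2a1 and Ugt2b10 were not well above background in either channel on any array. Probes for near-identical Ugt2b copies may take up one another's transcripts, which was not tested.

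Of subfamily 1, which shares its last exons among several enzymes, 2 genes had a probe and Ugt1a6 alone was tested. Ugt1a6, which conjugates planar phenols and is known from the kidney, had ratios of 0.06, 0.17 and 0.00090 and a mean of 0.08 ± 0.09 (SD, n = 3, adjusted p = 0.402). The 95% interval of the mean ran from -0.09 to 0.25, so a change of the size seen in the lower Ugt2 genes lay outside it. A further probe of Ugt1a6 gave 0.35, -0.24 and 0.14. The other gene, Ugt1a9, was not well above background in either channel on any array. With median centring Ugt1a6 moved to 0.86 (adjusted p = 0.0172), more than the shift of all genes.

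**Figure D2:**
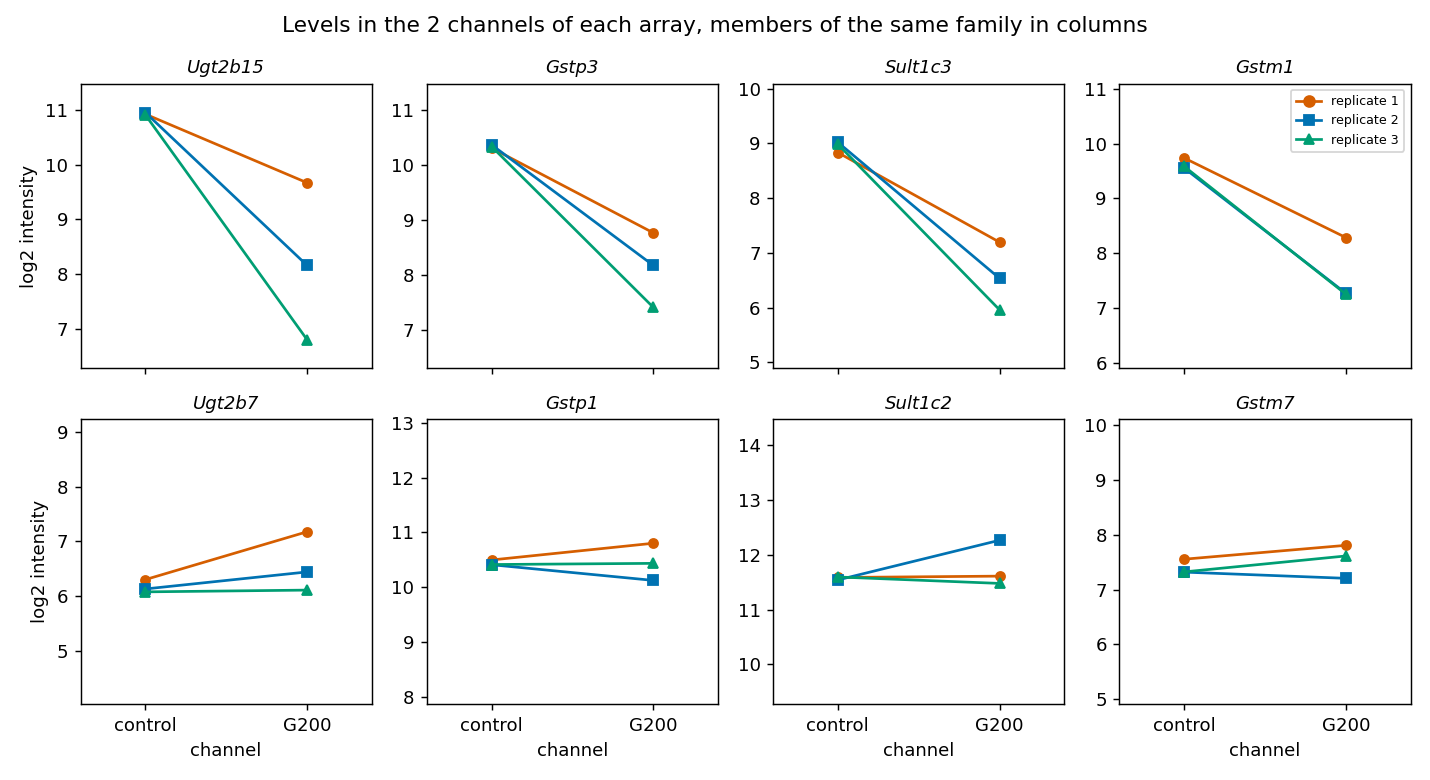
Log2 intensity in the control and G200 channels of each array, after loess and quantile normalization of the mean brightness, for pairs of genes of the same family, with lines joining the channels of an array and panels of equal height. The control points lie close together in each panel, and the G200 points of Ugt2b15 spread over the arrays (log2 ratios of -1.25, -2.79 and -4.10).

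The cytosolic sulfotransferases of subfamily 1 act on phenols, catechols, thyroid hormones and other small molecules. Of 6 Sult1 genes with a probe, 5 were tested, 3 were lower and none was higher. Sult1c3, a form known chiefly from liver, had ratios of -1.64, -2.48 and -3.02, a mean of -2.38 ± 0.70 (SD, n = 3, adjusted p = 0.00154). All arrays showed a fall of more than 2-fold, and the call held under every scaling tried. Sult1a1, the main phenol sulfotransferase, had ratios of -0.99, -0.79 and -1.34 and a mean of -1.04 ± 0.28 (SD, n = 3, adjusted p = 0.00184). It was lower on each array, while with median centring the call of Sult1a1 was lost (-0.34, adjusted p = 0.136) and with no normalization between the dyes its mean was 0.01.

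Sult1b1, which sulfates thyroid hormones, had ratios of -0.44, -0.18 and -0.81, a mean of -0.48 ± 0.32 (SD, n = 3, adjusted p = 0.0272). Its second probe gave -0.24, -0.13 and -0.61, so both were negative on each array. The call was lost without replicate 3 (adjusted p = 0.137), with a background offset of 0 (0.0551), with the Feature Extraction ratio (0.0660) and in separate channels without a replicate block (0.0642), and with median centring the mean was 0.26. With no normalization Sult1b1 was at 0.62 and passed as higher (adjusted p = 0.0442). The family median of -0.48 likewise turned to 0.26 with median centring and to 0.62 with no normalization.

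Sult1c2 and Sult1c2a, forms known from kidney, did not pass. Sult1c2 had ratios of 0.02, 0.73 and -0.12, a mean of 0.21 ± 0.45 (SD, n = 3, adjusted p = 0.337). Sult1c2a had ratios of -0.08, 0.74 and 0.16, a mean of 0.27 ± 0.42 (SD, n = 3, adjusted p = 0.198). In both genes replicate 2 stood above the others. A further Sult1c2a probe gave 0.42, 0.78 and 0.39, and with the mean of both probes the adjusted p was 0.0437. Without replicate 1 the brighter probe reached 0.0421. Both genes passed as higher with median centring (0.97 and 1.07) and with no normalization (1.33 and 1.42). On chromosome 9, 1 coding gene lies between Sult1c2 and Sult1c3, and Sult1c3 minus Sult1c2 was -1.66, -3.21 and -2.90 on the 3 arrays. Neighbours of the same subfamily thus had different ratios on each array, with no test of that difference. Sult1d1 was not well above background in either channel on any array.

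Among the other sulfotransferases, Sult2a1 and Sult2a6 act on hydroxysteroids and bile acids and are known chiefly from liver. The promoters of both are shown because both genes were called lower. Both had passed the filter through the control alone, so they had to be dimmer in G200. Capitals mark the bases that differ between the promoters. They matched at 116 of 120 positions (96.7%).
Sult2a1 (chr1:84638948-84639067, - strand): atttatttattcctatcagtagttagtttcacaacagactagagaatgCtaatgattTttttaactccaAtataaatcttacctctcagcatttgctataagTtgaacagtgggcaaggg
Sult2a6 (chr1:84097809-84097928, - strand): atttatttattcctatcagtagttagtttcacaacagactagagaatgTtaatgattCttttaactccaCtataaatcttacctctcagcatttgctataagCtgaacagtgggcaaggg

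Sult2a1 had ratios of -1.05, -1.45 and -1.84, a mean of -1.45 ± 0.39 (SD, n = 3, adjusted p = 0.00151). Each array was below -1, and the G200 signal was well above background on 2 of the 3 arrays. Sult2a6 had ratios of -0.78, -0.71 and -0.93 (mean -0.80 ± 0.11, SD, n = 3, adjusted p = 0.00124). Its G200 signal was not well above background on any array. A bound of its fall came to 1.75-fold over the mean of the arrays. Such a bound compares the mean level of the bright group with a floor for the dim group. The floor is the dim signal itself or, where that is larger, the faintest level on the array that counted as well above background, with channels scaled by loess and by quantiles of their mean brightness. In Sult2a6 the bound came out equal to the fold of the mean ratio, so it is an estimate and no lower limit. It is open to dye bias. It also depends on the scaling, since with no normalization the mean log2 ratio of Sult2a6 was -0.49 and its call was lost (adjusted p = 0.0536). With the ratio that Feature Extraction wrote, the median of the Sult genes outside subfamily 1 was -3.57 in place of -0.80. The first is the value of Sult2a1 and the second that of Sult2a6, so these medians do not follow 1 gene. Over the settings tried Sult2a1 ran from -3.57 to -0.79 and Sult2a6 from -3.76 to -0.49. Sult4a1, known chiefly from brain, had ratios of 0.05, 0.09 and 0.15, a mean of 0.10 ± 0.05 (SD, n = 3, adjusted p = 0.276). It was well above background in the control on 1 array, and its value says little about the control level. With the Feature Extraction ratio Sult4a1 passed as higher (0.96, adjusted p = 0.0196). Sult2a2, Sult2b1 and Sult6b1 were not well above background in either channel on any array. Sult2a probes may share transcripts of near-identical copies, which was not tested.

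The glutathione S-transferases of the alpha class (Gsta), which are abundant in hepatocytes and proximal tubule cells, did not pass in any of the 6 genes tested. Their means ran from -0.19 to 0.20, with a median of -0.03. Gsta2 had ratios of -0.48, -0.27 and 0.18 (mean -0.19 ± 0.34, SD, n = 3, adjusted p = 0.275). Gsta4, which clears 4-hydroxynonenal from lipid peroxidation, had ratios of -0.31, -0.07 and 0.09 (mean -0.10 ± 0.20, SD, n = 3). For Gsta5 the ratios were -0.25, -0.09 and 0.20 (mean -0.05 ± 0.23, SD, n = 3). These 3 genes lie side by side on chromosome 8, and in each of them replicate 1 was the lowest and replicate 3 the highest, unlike the Ugt2b genes.

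Gsta1 had ratios of 0.19, -0.06 and -0.18 (mean -0.02 ± 0.19, SD, n = 3), and Gsta6 of 0.24, -0.02 and -0.03 (mean 0.06 ± 0.16, SD, n = 3). Each of these genes was printed as 10 spots per array, with a median SD between spots of 0.05 in Gsta1 and 0.07 in Gsta6, so the arrays differed more than the spots did. Gsta3 had ratios of 0.62, -0.06 and 0.05 (mean 0.20 ± 0.37, SD, n = 3, adjusted p = 0.279). Replicate 1 decided its mean, and a further probe gave 0.39, 0.40 and 0.20. The direction of the class depended on the scaling, since its median was 0.04 with the ratio that Feature Extraction wrote, 0.74 with median centring and 1.09 with no normalization. With either of the last settings Gsta1, Gsta2, Gsta3, Gsta4 and Gsta5 passed as higher, and Gsta6 passed with no normalization. Gsta4l1 was not well above background in either channel on any array. Probes of the close copies Gsta2 and Gsta5, or Gsta1 and Gsta3, may not tell them apart, which was not tested.

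The mu class (Gstm), which detoxifies epoxides and other electrophiles, was split. Gstm1 had ratios of -1.45, -2.29 and -2.33, a mean of -2.02 ± 0.50 (SD, n = 3, adjusted p = 0.00116). It fell by more than 2-fold on each array, and it stayed lower under every scaling tried. Gstm2 had ratios of -0.49, -0.85 and -0.94 (mean -0.76 ± 0.24, SD, n = 3, adjusted p = 0.00362). It was lower on each array, though with median centring its call was lost (-0.26, adjusted p = 0.320) and with no normalization between the dyes its mean was 0.09. Gstm4 had ratios of -0.19, -0.12 and -0.22 (mean -0.18 ± 0.05, SD, n = 3, adjusted p = 0.0784), and its second probe 0.09, 0.11 and -0.06. The probes of Gstm4 thus differed in sign, and the brighter was well above background in G200 on 2 arrays. It passed as lower with a background offset of 0 (-0.45, adjusted p = 0.0238), an offset of 16 (-0.30, 0.0371), the Feature Extraction ratio (-0.58, 0.0407) and the robust variance model (0.0443), and was at 0.18 with no normalization. Gstm7 had ratios of 0.25, -0.11 and 0.29, a mean of 0.14 ± 0.22 (SD, n = 3, adjusted p = 0.278). It passed as higher without replicate 2 (0.27, adjusted p = 0.0477) and with no normalization (0.92, 0.0161).

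Gstm2, Gstm1 and Gstm4 are neighbours on chromosome 2. Gstm1 minus Gstm2 was -0.96, -1.44 and -1.39 on the 3 arrays, and Gstm1 minus Gstm7 was -1.71, -2.17 and -2.62. Gstm1 was the lower gene of both pairs on each array, with no test of the difference. Gstm5 was well above background in G200 on 2 arrays and in the control on none, and Gstm3, Gstm6 and Gstm6l were not in either channel on any array.

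The pi class was split. Its members Gstp1, the form typical of kidney tubules and bile ducts rather than hepatocytes, and Gstp3 are neighbours on chromosome 1. The 120 bases before each start are shown for this contrast, with TGACNNNGC, the core of the antioxidant response element, in capitals where it is present on either strand.
Gstp1 (chr1:210769706-210769825, - strand): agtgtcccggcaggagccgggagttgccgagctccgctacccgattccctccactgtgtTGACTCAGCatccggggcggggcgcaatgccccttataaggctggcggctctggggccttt
Gstp3 (chr1:210787685-210787804, - strand): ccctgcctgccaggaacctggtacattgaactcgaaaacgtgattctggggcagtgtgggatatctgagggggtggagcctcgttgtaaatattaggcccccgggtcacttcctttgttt

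Gstp3 had ratios of -1.55, -2.20 and -2.94, a mean of -2.23 ± 0.69 (SD, n = 3, adjusted p = 0.00181). Gstp1 had ratios of 0.31, -0.29 and 0.02, a mean of 0.01 ± 0.30 (SD, n = 3, adjusted p = 0.934) and a 95% interval from -0.27 to 0.30. Gstp3 fell on every array while Gstp1 lay on both sides of 0, and their difference was -1.85, -1.92 and -2.96. That difference was not tested. The direction of Gstp1 depended on the scaling, since it was 0.73 with median centring (adjusted p = 0.0530) and 1.08 with no normalization, where it passed as higher (0.0136). Gstp3 stayed lower, at -1.59 and -1.24, and the median of the class was then -0.43 and -0.08. The letters TGACNNNGC start at position -61 of Gstp1 and are absent from the window of Gstp3. In the 250 bases before the start they occur in 10.1% of all 33469 promoters and in 4 of the 32 members with a promoter, Gsta3, Gstm7, Gstp1 and Gstz1. Of these, Gstz1 was lower, and the other genes did not pass.

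Of the remaining cytosolic and mitochondrial transferases, 5 of 7 genes with a probe were tested. Gsto1, an omega-class enzyme that reduces dehydroascorbate, had ratios of 0.45, 0.31 and 0.35, a mean of 0.37 ± 0.07 (SD, n = 3, adjusted p = 0.00944). It was higher on each array, and its adjusted p was 0.0768 without replicate 3 and 0.139 in separate channels without a replicate block. The size depended on the scaling, with 0.98 for Gsto1 under median centring and 1.33 with no normalization. Gstk1, a kappa-class enzyme of mitochondria and peroxisomes, had ratios of 0.22, 0.12 and 0.28 (mean 0.21 ± 0.08, SD, n = 3, adjusted p = 0.0551). It did not pass, with each array above 0, and it passed with limma's robust variance model with a trend (adjusted p = 0.0346), with median centring (0.0177) and with no normalization (0.00644). Gstt1 of the theta class had ratios of 0.23, -0.13 and 0.32 (mean 0.14 ± 0.24, SD, n = 3, adjusted p = 0.312). Its arrays lay on both sides of 0, and it passed as higher without replicate 2 (0.28, adjusted p = 0.0495) and with no normalization (0.95, 0.0145).

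Gstt2 had ratios of -0.42, -0.31 and -0.57, a mean of -0.43 ± 0.13 (SD, n = 3, adjusted p = 0.00823). It was lower on each array, but its mean was 0.24 with median centring and 0.59 with no normalization, where it passed as higher (adjusted p = 0.0472), and the adjusted p was 0.0784 without replicate 3 and 0.0562 with the Feature Extraction ratio. Gstz1, which also isomerizes maleylacetoacetate in tyrosine breakdown, had ratios of -0.24, -0.14 and -0.57 (mean -0.32 ± 0.23, SD, n = 3, adjusted p = 0.0472). This call lay close to the threshold and was lost without replicate 1 (adjusted p = 0.0596) and without replicate 3 (0.260), while median centring turned the mean to 0.44. With no normalization it was 0.79 and passed as higher (0.0201). The call of Gstz1 was also lost with a background offset of 0 (adjusted p = 0.105) or 16 (0.0555), the Feature Extraction ratio (0.0888), both channels well above background (0.0527) and separate channels without a replicate block (0.0855). Gsto2 and Gstt4 were not well above background in either channel on any array.

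The membrane-bound Mgst enzymes sit in the endoplasmic reticulum and the outer mitochondrial membrane, and all 3 genes with a probe were tested. Mgst2, which also makes leukotriene C4, had ratios of -0.73, -0.73 and -0.98, a mean of -0.82 ± 0.15 (SD, n = 3, adjusted p = 0.00144). Mgst1, the main liver form, had ratios of -0.15, -1.24 and -1.03 and a mean of -0.81 ± 0.58 (SD, n = 3, adjusted p = 0.0249). Mgst2 was alike on the arrays, whereas Mgst1 was near 0 on replicate 1. With no normalization Mgst2 was at -0.17 and its call was lost (adjusted p = 0.518). The call of Mgst1 was lost without replicate 2 (adjusted p = 0.105), without replicate 3 (0.139), with median centring (0.627), with the Feature Extraction ratio (0.0616) and in separate channels without a replicate block (0.0952), and with no normalization it was at 0.15 (0.719). Mgst3 had ratios of 0.56, 0.08 and 0.63, a mean of 0.43 ± 0.30 (SD, n = 3, adjusted p = 0.0331). It was higher on each array, but not past the threshold without replicate 1 (adjusted p = 0.0811), without replicate 3 (0.191), with a background offset of 0 (0.0561), with the Feature Extraction ratio (0.0611) or in separate channels without a replicate block (0.166). Mgst3 stood at 1.18 with median centring and at 1.53 with no normalization.

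Conjugation enzymes known chiefly from rat liver were compared with enzymes known for their expression in kidney. Of 10 liver-type genes listed, 6 were tested, namely Sult1c3, Ugt2b, Ugt2b37, Ugt2b1, Sult2a1 and Sult2a6, and all 6 were lower. Of these, Sult2a1, Sult2a6 and Ugt2b1 had passed the filter through the control alone, so they had to be dimmer in G200. Of 8 kidney-type genes listed, 4 were tested, namely Gstp1, Sult1c2, Sult1c2a and Ugt1a6, and none passed in either direction. The liver-type median was -1.62, with -1.01, -1.76 and -2.08 on replicates 1, 2 and 3. The kidney-type median was 0.14, with 0.04, 0.45 and 0.01. The liver-type list was thus below the kidney-type list on each array, by -1.05, -2.21 and -2.09. Members are not replicates, so this difference has no test. The sign of the liver-type median held under every scaling tried (-1.24 with median centring, -0.89 with no normalization), and the kidney-type median was then 0.92 and 1.27, above the shift of all genes. Sult1c2, Sult1c2a and Ugt1a6 passed as higher with either of these settings.

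Markers of hepatocytes moved with the liver-type enzymes. Of 20 hepatocyte markers listed, 19 were tested, and all 19 were lower, with a median of -3.06 and with -1.64, -3.18 and -4.27 on replicates 1, 2 and 3. The mean log2 intensity of these 19 genes in the control was 12.4 on each array, and in G200 it was 10.9, 9.39 and 8.17. On every array all 19 were well above background in both colours, and Cps1 in neither. Alb, the serum albumin gene, had ratios of -2.06, -3.73 and -5.67. Of 10 proximal tubule markers, all were tested, and 2 were higher and 2 lower (20% each, against 11.6% and 25.9% of all genes tested). The median of this list was 0.0011, with 0.09, 0.05 and -0.05 on the arrays. Where the signal of these markers in the kidney samples, the control included, came from was not tested, nor was its part in the falls of conjugation genes. In tissue RNA fewer cells of a type and less RNA per cell cannot be told apart.

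**Figure D3:**
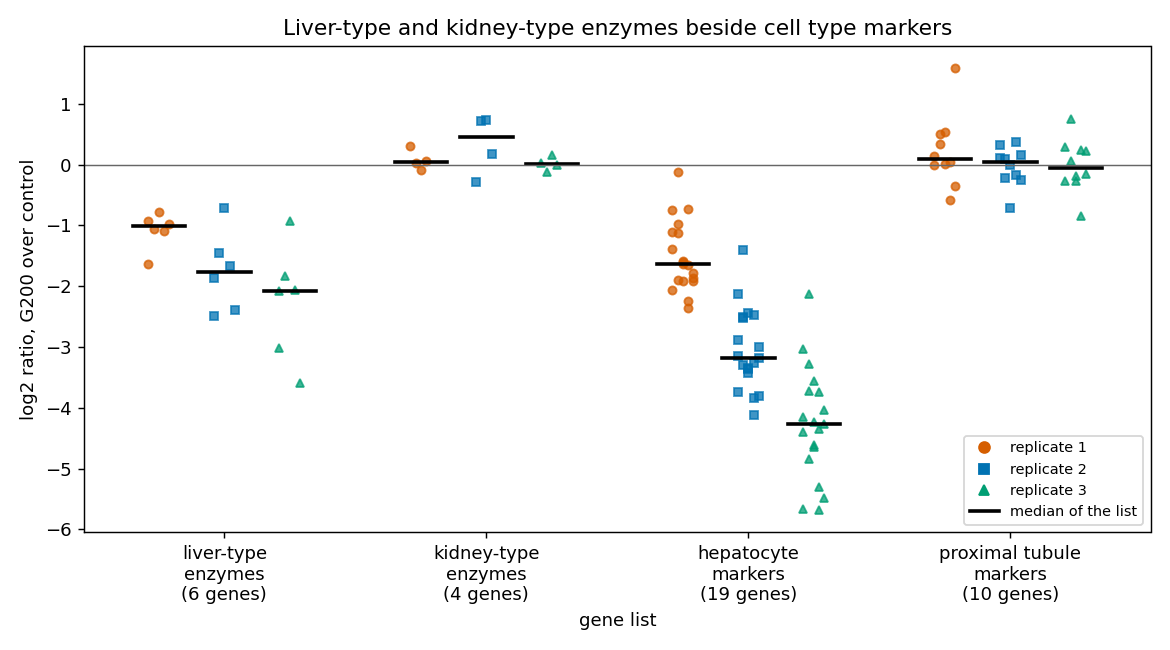
Log2 ratio of G200 over control of each tested gene of 4 lists, with 1 point per gene and array and the median of each list on each array as a bar. The liver-type medians of -1.01, -1.76 and -2.08 lie below 0 and the hepatocyte markers lower still, while the kidney-type medians are 0.04, 0.45 and 0.01 (0.92 over the mean ratios with median centring).

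The arrays contributed unequally. Among the 10 conjugation genes lower by 2-fold or more, 8 (80%) had their highest value on replicate 1 and their lowest on replicate 3. All 19 hepatocyte markers had that pattern, as did 31.3% of the 571 genes lower by 2-fold or more and 13.5% of all genes tested. It was also found in 5 of 6 collecting duct and 3 of 4 endothelial markers. Of 10 proximal tubule markers 1 had it, and of the glomerular and stromal markers none. Over the 36 conjugation genes the pattern was found in 13. The median SD across arrays was 0.08 for the control level and 0.34 for the G200 level of the 36 genes. Not every gene followed these medians, since Gsto1 and Gstm4 varied more in the control than in G200 and Gstk1 about equally in both.

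Other markers of kidney and blood cells moved less than the hepatocyte list. The median log2 ratio was 0.09 for 4 genes of the thick ascending limb, 0.34 for the distal convoluted tubule with 1 gene tested, 0.16 for 6 genes of the collecting duct and 0.36 for 5 glomerular genes. It was -0.01 for 4 endothelial genes, 0.05 for 5 stromal genes and -0.11 for 3 leukocyte genes. With 2 genes tested in each, the adrenal list stood at -0.13 and the adipose list at -0.43. Each of these medians was smaller in size than that of the liver-type enzymes. Their part in the values of the conjugation genes was not tested.

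Genes that feed, extend or regulate conjugation were listed beside the enzymes, and none of these lists fell as the Ugt2 family did. Of 9 tested genes of glutathione supply, 2 were higher and 3 lower (22.2% and 33.3%), with a median of -0.01. Over all genes tested 11.6% were higher and 25.9% lower. Gclc, the catalytic subunit of glutamate-cysteine ligase, had ratios of 0.61, 0.27 and 0.55 (mean 0.47 ± 0.18, SD, n = 3, adjusted p = 0.00948). Cth, which makes cysteine from cystathionine, had ratios of 0.58, 0.21 and 0.39 (mean 0.39 ± 0.19, SD, n = 3, adjusted p = 0.0173). Both rose on each array, and without replicate 3 the adjusted p was 0.0812 for Gclc and 0.106 for Cth, which also missed the threshold without replicate 1 (0.0531).

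Chac1, which degrades glutathione, had ratios of -0.90, -0.63 and -0.71 (mean -0.75 ± 0.14, SD, n = 3, adjusted p = 0.00167). Ggct, which acts on gamma-glutamyl amino acids, had ratios of -0.93, -0.23 and -0.70 (mean -0.62 ± 0.36, SD, n = 3, adjusted p = 0.0158). Cbs, which makes cystathionine, had ratios of -0.73, -0.26 and -0.44 (mean -0.48 ± 0.24, SD, n = 3, adjusted p = 0.0142). All of these were lower on each array, while median centring gave 0.15 for Ggct and 0.25 for Cbs, and without replicate 3 the adjusted p was 0.102 for Ggct and 0.0829 for Cbs. With no normalization Cbs (0.60, adjusted p = 0.0306) and Ggct (0.50, 0.0483) passed as higher, while Chac1 was at -0.21 and its call was lost (adjusted p = 0.356). With the Feature Extraction ratio Ggct (adjusted p = 0.0560) and Cbs (0.0713) missed the threshold, as Ggct did in separate channels without a replicate block (0.228).

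The next list held 6 genes that make mercapturates from glutathione conjugates or act on intermediates and products of that route. Of these, 2 were higher (33.3%) and none was lower, against 11.6% and 25.9% of all genes tested. Anpep, a brush border peptidase that cleaves cysteinylglycine conjugates, had ratios of 0.78, 0.21 and 0.63 (mean 0.54 ± 0.30, SD, n = 3, adjusted p = 0.0155). Kyat1, a cysteine conjugate beta-lyase, had ratios of 0.33, 0.20 and 0.33 (mean 0.28 ± 0.08, SD, n = 3, adjusted p = 0.0217). Both rose on each array, and both missed the threshold without replicate 3 (adjusted p = 0.105 and 0.153), as Kyat1 did without replicate 1 (0.0762), with a background offset of 0 (0.0556) and in separate channels without a replicate block (0.0781). None of the 4 genes of UDP-glucuronate supply and glucuronide cleavage, Ugp2, Ugdh, Slc35d1 and Gusb, passed in limma, with means from -0.15 to 0.21.

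Of 8 tested genes of sulfate uptake, PAPS supply and sulfate removal, 1 was higher and 1 lower (12.5% each). Over all genes tested these shares were 11.6% and 25.9%. Bpnt2, a Golgi phosphatase that removes the product of sulfation, had ratios of 0.19, 0.35 and 0.19 (mean 0.24 ± 0.09, SD, n = 3, adjusted p = 0.0382). Slc26a1, a sulfate transporter of the basolateral membrane, had ratios of -0.45, -0.11 and -0.73 (mean -0.43 ± 0.31, SD, n = 3, adjusted p = 0.0349). Neither call was firm. That of Bpnt2 was lost without any 1 of the 3 replicates (adjusted p of 0.0741, 0.103 and 0.147) and with the mean over its probes (0.15, adjusted p = 0.146), and that of Slc26a1 without replicate 1 (0.0602) or 3 (0.188), with 0.28 under median centring. With no normalization Slc26a1 was at 0.63 and passed as higher (0.0356). The call of Slc26a1 was also lost with a background offset of 0 (adjusted p = 0.0658), with the Feature Extraction ratio (0.122) and in separate channels without a replicate block (0.0711).

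Among 14 tested genes of methyl, acetyl and amino acid conjugation, 3 were higher and 4 lower (21.4% and 28.6%). Over all genes tested the shares were 11.6% and 25.9%. Inmt, which methylates indoleamines, had ratios of 0.85, 0.52 and 0.54 (mean 0.64 ± 0.19, SD, n = 3, adjusted p = 0.00394). Hnmt, which methylates histamine, had ratios of 0.64, 0.23 and 0.33 (mean 0.40 ± 0.21, SD, n = 3, adjusted p = 0.0208), and Glyat, which joins glycine to benzoate, had ratios of 0.42, 0.53 and 0.21 (mean 0.39 ± 0.16, SD, n = 3, adjusted p = 0.0155). These rose on each array. The call of Hnmt was lost without replicate 1 (adjusted p = 0.0590) or 3 (0.0975), and that of Glyat without replicate 2 (0.0542) or with the Feature Extraction ratio (0.0696). In separate channels without a replicate block neither passed (adjusted p = 0.0560 for Hnmt and 0.543 for Glyat).

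Nnmt, which methylates nicotinamide, had ratios of -1.21, -1.0 and -1.20 (mean -1.14 ± 0.12, SD, n = 3, adjusted p = 0.000732). Glyatl1, a relative of Glyat, had ratios of -0.34, -0.44 and -0.34 (mean -0.37 ± 0.06, SD, n = 3, adjusted p = 0.00850). Nnmt fell by 2-fold or more with almost no difference between the arrays, unlike the Ugt2b genes. The size of its fall depended on the processing, from -2.51 to -0.58 over the settings. It was less than 2-fold with median centring (-0.93) and with no normalization (-0.58). Glyatl1 was lower on each array by less. It had to be dimmer in G200, since it passed the filter through the control alone and was well above background in G200 on 1 array, and its call was lost without replicate 3 (adjusted p = 0.0697) and with no normalization (0.612).

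**Figure D4:**
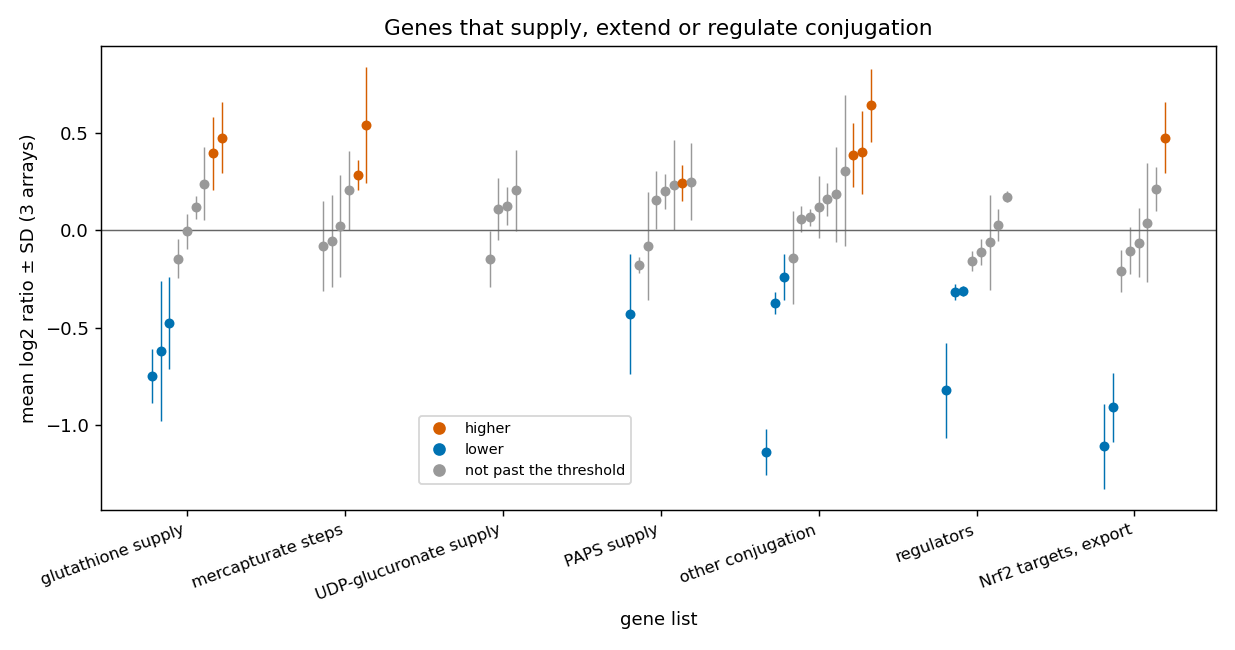
Mean log2 ratio of G200 over control with its SD over the 3 arrays, for the genes reported of 7 lists that feed, extend or regulate conjugation, with colour for the call at an adjusted p under 0.05. Calls lie on both sides of 0 in most lists, from -1.14 in Nnmt to 0.64 in Inmt, and Cbs, Ggct and Slc26a1 turn above 0 with median centring.

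Of 8 tested regulators known to act on conjugation genes, 3 were lower (37.5%) and none was higher, with a median of -0.14. Over all genes tested 25.9% were lower and 11.6% higher. Nr1i2, the pregnane X receptor, had ratios of -0.70, -0.66 and -1.10 (mean -0.82 ± 0.25, SD, n = 3, adjusted p = 0.00300). Hnf4a had ratios of -0.33, -0.27 and -0.35 (mean -0.32 ± 0.04, SD, n = 3, adjusted p = 0.0129), and Nr1i3, the constitutive androstane receptor, had ratios of -0.34, -0.29 and -0.30 (mean -0.31 ± 0.03, SD, n = 3, adjusted p = 0.0134). The 3 nuclear receptors were lower on each array, though with no normalization between the dyes Nr1i2 was at 0.04, Hnf4a at 0.15 and Nr1i3 at -0.09, none of them past the threshold. With median centring the calls of Nr1i2 (-0.31, adjusted p = 0.133) and Hnf4a (-0.20, 0.184) were lost. Nr1i3 was not well above background in G200 on any array, so it had to be dimmer there. Its bound came to 1.24-fold, equal to the fold of its mean ratio, and is likewise no lower limit. With the Feature Extraction ratio its mean was -2.83. Without replicate 3 the adjusted p was 0.110 for Hnf4a and 0.102 for Nr1i3. Nfe2l2, which encodes the antioxidant regulator Nrf2, had ratios of 0.20, -0.11 and -0.27 (mean -0.06 ± 0.24, SD, n = 3, adjusted p = 0.663). It did not pass, and it is named here after its values were seen.

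Of 9 tested genes known as Nrf2 targets or export pumps, 1 was higher, namely Gclc, and 3 were lower (11.1% and 33.3%). The shares over all genes tested were 11.6% and 25.9%. Abcc2, the canalicular and brush border pump for glutathione and glucuronide conjugates, had ratios of -0.86, -1.19 and -1.27 (mean -1.11 ± 0.22, SD, n = 3, adjusted p = 0.00113). Abcc4, a pump for sulfated steroids and nucleotides, had ratios of -1.05, -0.96 and -0.71 (mean -0.91 ± 0.18, SD, n = 3, adjusted p = 0.00136). The pumps were lower on each array, and replicate 1 was not always the nearest to 0. With no normalization both calls were lost, at -0.39 for Abcc2 (adjusted p = 0.193) and -0.028 for Abcc4 (0.919), and that of Abcc4 also with median centring (-0.38, 0.0887).

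**Figure D5:**
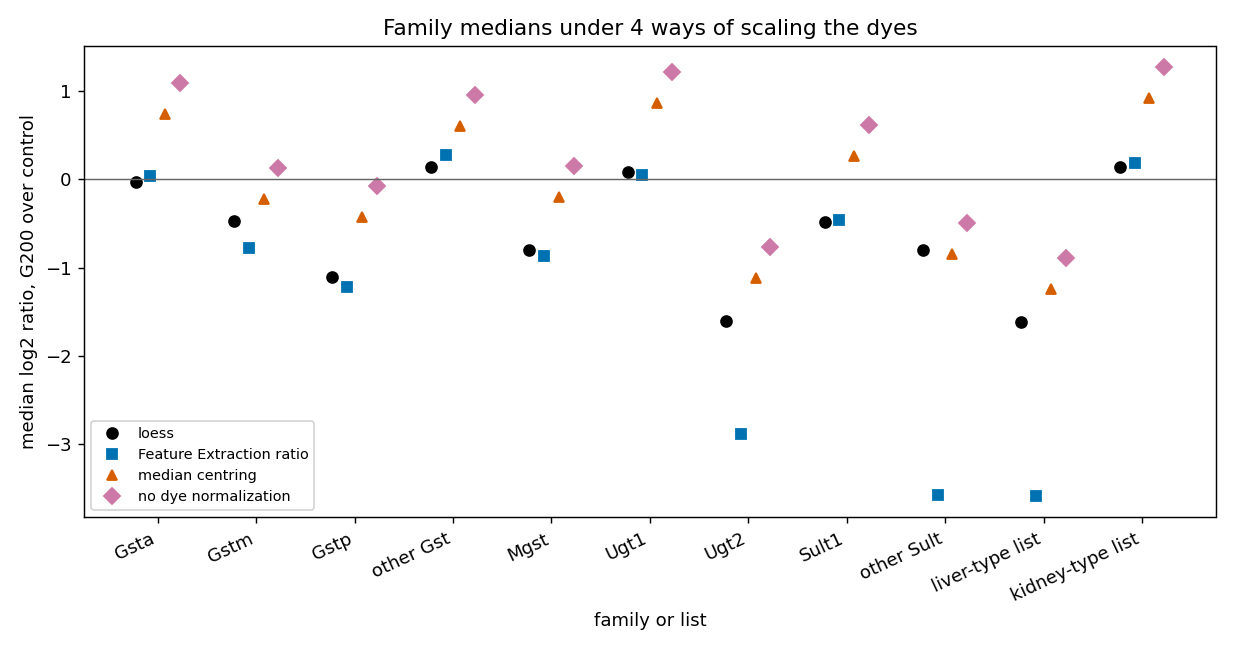
Median log2 ratio of each conjugation family and of the liver-type and kidney-type lists under 4 ways of scaling the dyes, with 1 point per setting. The Ugt2 median is below 0 under each (-1.61 with loess, -0.76 with no normalization), while those of Gsta, Gstm, Mgst and Sult1 turn above 0 with no normalization and those of Gsta and Sult1 also with median centring (that of Gsta is also above 0 with the Feature Extraction ratio).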

How the data were processed

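The deposited scanner files were made with Agilent Feature Extraction and give, per colour, the median intensity of every spot and of the area around it. Beside these stand a log10 ratio of the colours (red over green) by the authors and other marks for outliers, saturation and signal well above background, and the deposited marks were used to filter spots. The file headers give version 11.5.1.1 and the submitters' notes version 9.3.2.1. Spot intensities were corrected with limma 3.58.1 in R 4.3.3 (normexp, offset 50, which shrinks ratios of dim probes) and normalized by loess within arrays. Outlier and control spots were left out. Between 24260 and 27008 of 42877 spots were well above background in each colour, and none was saturated, so signal over background limits the dim genes. Probes were averaged over spots, and the brightest probe stood for its gene. Of 30367 probes, 18355 matched a RefSeq symbol.

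The mean log2 ratio of a gene was compared with 0 in a two-sided test (lmFit and eBayes of limma), and p-values were adjusted by Benjamini-Hochberg over the 14179 genes tested. The steps were tested on simulated data. Over 1109 probes with at least 5 spots, the variance between arrays was a median of 0.554 times that between spots in green. In red it was 5.74 times over 1084 probes. Named genes were the 3 largest rises and 3 largest falls of each family, all tested liver-type and kidney-type genes and, in the supporting lists, the 3 largest called rises and falls with the same sign on all arrays. The results of 2 genes of the supporting lists are left out of the text and plots, and the counts include them. The members and lists were chosen with earlier results of these data known. All arrays were on 1 slide and in 1 scan.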

Additional observations from a re-analysis of the deposited data

How the results depend on the processing

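Signal over background limits the dim genes, and 3 arrays of 1 control RNA limit the rest. Without any normalization of the dyes 8314 genes passed in limma, and 19 conjugation genes were higher and 7 lower. With median centring the counts were 11 and 11. Leaving out a replicate gave 1611 to 4965 genes, 0 to 4 higher and 13 to 17 lower conjugation genes. An offset of 0 left 1 higher and the robust variance model 4. With separate channels and no replicate block 0 were higher and 14 lower. After adjustment the methods' t-test, carried over to the 3 ratios, called 2 genes, 0 of them higher and 0 lower conjugation genes (15 at an unadjusted p under 0.05). On the 2 channels, the form with groups that the methods describe, it called 337, with 0 higher and 1 lower. The liver-type minus kidney-type median of -1.76 was -2.79 with an offset of 0, -3.77 with the Feature Extraction ratio and -2.46 with both channels well above background. With median centring values turned positive for the Sult1 (0.26) and Gsta (0.74) medians, Gsta1 (0.77), Gsta2 (0.65), Gsta4 (0.71), Gsta5 (0.80), Gstt2 (0.24), Gstz1 (0.44), Sult1b1 (0.26), Cbs (0.25), Ggct (0.15) and Slc26a1 (0.28). With no normalization these stood at 0.62 for the Sult1 and 1.09 for the Gsta median, 1.12 for Gsta1, 1.00 for Gsta2, 1.06 for Gsta4, 1.15 for Gsta5, 0.59 for Gstt2, 0.79 for Gstz1, 0.62 for Sult1b1, 0.60 for Cbs, 0.50 for Ggct and 0.63 for Slc26a1. The Gstm (0.13) and Mgst (0.15) medians, Gstm2 (0.086), Gstm4 (0.18), Mgst1 (0.15), Sult1a1 (0.014), Hnf4a (0.15) and Nr1i2 (0.038) also turned positive there. The cause was not tested. All 18 lower genes kept a negative mean under every other setting that held them. The slide as a block was not run, since all arrays were on 1 slide.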
